A study of Rattus norvegicus with 20 samples.

Results

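The transcripts described here are 3 of the 32883 genes measured in rat choroid plexus. They are the ferritin heavy chain Fth1 (ENSRNOG00000022619), the ferritin light chain Ftl1 (ENSRNOG00000031506) and transferrin Tf (ENSRNOG00000030625). They were chosen for their place in iron storage and iron carriage and not for how they moved, although results of these data were known when they were chosen. All 3 were above the minimum level in every comparison. The globins Hba-a1 (ENSRNOG00000029886) and Hbb (ENSRNOG00000058105) were set beside them, since red cell RNA in a tissue rises with the blood left in it.

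Iron enters most cells bound to transferrin, which the transferrin receptor takes up at the cell surface. Inside the cell, spare iron is stored in ferritin, a hollow shell of heavy chains, which oxidise iron, and light chains, which help it to form a mineral core. When iron is scarce, iron regulatory proteins bind a hairpin near the start of the ferritin mRNAs and block their translation, so ferritin protein can change without its mRNA. The choroid plexus, the epithelium that secretes cerebrospinal fluid, makes transferrin itself and releases it into that fluid.

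The tissue came from 20 female Zucker rats on normal chow, all 16 weeks old, with the choroid plexuses of the lateral and the 4th ventricles taken after decapitation. Lean rats were heterozygous (+/fa) and obese rats homozygous (fa/fa) for a recessive allele of the leptin receptor, so that the controls carried 1 copy of it as well. The untreated cohort held 6 lean rats (rats 1 to 6) and 6 obese rats (rats 7 to 12). The injected cohort held 4 lean control rats given the sesame oil vehicle (rats 13 to 16) and 4 obese rats given 1 mg testosterone propionate in sesame oil 2 times a week for 4 weeks (obese + TT, rats 17 to 20). No untreated rat was injected and no lean rat received testosterone. Obesity and testosterone therefore differ together in the injected cohort. Between the cohorts, injection and cohort differ together in lean rats, and testosterone, injection and cohort differ together in obese rats. In neither comparison can they be told apart. The stage of the estrous cycle was not controlled. The fa allele changes the receptor protein, so the level of its mRNA is no check of the labels.

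Levels are TPM, which count transcripts per fixed total and are scaled to gene length, so that genes can be compared within a library. Between rats a level also depends on the share that other transcripts take of that total. How many reads lie behind each level is not known. Ttr (transthyretin), the defining transcript of choroid plexus epithelium, ranked first in every library and took 25.8 to 39.3% of the TPM. The libraries held 14968 to 16860 genes above 0. Between any pair of libraries at most 2.6% of values were identical, so none was a copy of another.

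The sequences shown are those on which transcription and iron control of these genes start. The 250 bases before the start of Tf lie on the minus strand of chr8:112695377-112695626 (GRCr8, RefSeq) and are printed to show the promoter of the member with the widest range. Capitals mark a TATA box (TATAAA, 52 to 47 bases before the start) and a pair of CCAAT boxes, both read on the other strand as ATTGG (116 to 112 and 108 to 104 bases before the start).
Tf: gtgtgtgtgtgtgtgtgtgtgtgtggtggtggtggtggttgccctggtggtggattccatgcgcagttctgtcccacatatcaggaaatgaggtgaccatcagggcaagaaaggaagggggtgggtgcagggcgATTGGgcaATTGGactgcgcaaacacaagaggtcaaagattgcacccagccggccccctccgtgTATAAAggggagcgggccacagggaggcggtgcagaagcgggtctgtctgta

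Counting both strands, TATAAA was found in 12.9% and CCAAT in 34.0% of the 33469 windows of that length before annotated starts. The third motif searched, GGGCGG, was not found in the Tf window and was found in 30.5% of all windows. For Fth1 and Ftl1 themselves no window was used. The start of the iron-responsive hairpin is shown from ferritin light chain copies instead, with the loop letters CAGTG in capitals, because this is the element through which iron acts on ferritin translation. The copies are LOC100360087 (chr5:151606518-151606545, plus strand) and Ftl1l1 (chrX:136687587-136687614, minus strand), both on GRCr8.
LOC100360087: cgaggatctgtatcttgcttcaaCAGTG
Ftl1l1: cgaggatctgtatcttgcttcaaCAGTG

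These 28 bases were the same in both copies. Of the 6 ferritin copies with a window, these 2 hold CAGTG in the first 50 bases after the start, and Ftl1l2, Ftl1l3, Ftl1l5 and Fth1l1 do not. The letters CAGTG alone were found, on the transcribed strand, in the first 50 bases after the start in 7.39% of 33469 windows, so the match is a description only. RefSeq lists 23 entries of the Ftl1 type, 8 of them coding and 15 pseudogenes. It lists 7 of the Fth1 type (2 coding, 5 pseudogenes) and 1 Tf. Reads from near-identical copies could have been split between entries, so the levels of Ftl1 and Fth1 are uncertain in a way that the level of Tf is not, and the gap between both chains may not be the gap between all heavy and all light chain mRNA.

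Tf and Fth1 were among the most abundant transcripts of the tissue and Ftl1 was far below them. Over the 20 rats, the level of Tf ran from 1923 to 4331 TPM with a median of 2790, and it ranked 19th to 35th in its library. The level of Fth1 ran from 1426 to 2027 TPM with a median of 1673, and it ranked 33rd to 51st. The level of Ftl1 ran from 37.0 to 70.3 TPM with a median of 45.8, and it ranked 1358th to 2408th. The highest rat stood 1.42 times above the lowest for Fth1, 1.90 times for Ftl1 and 2.25 times for Tf. For the globins, that span was 3.66 for Hba-a1 and 4.37 for Hbb.

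**Figure D1:**
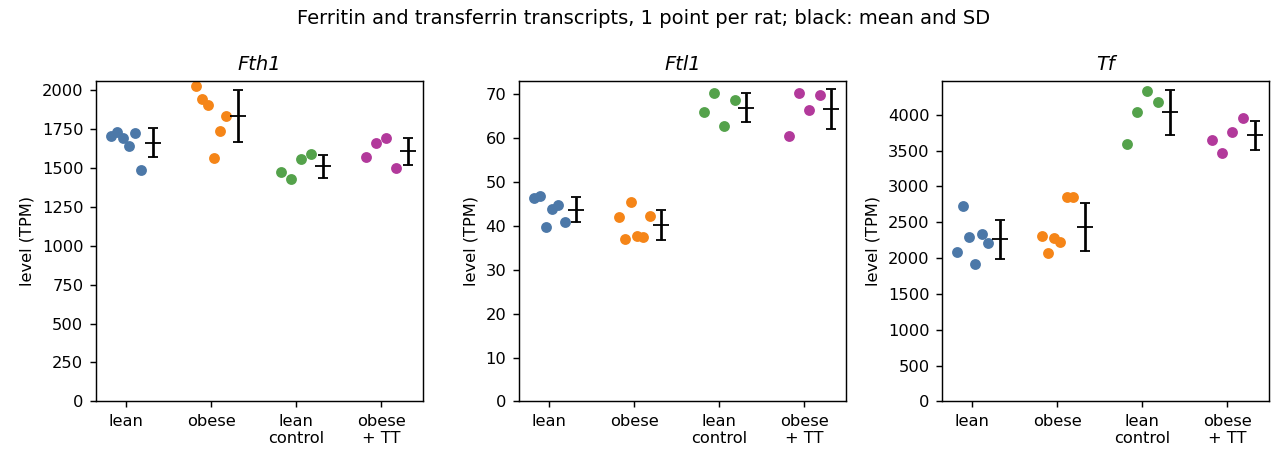
Level in TPM (vertical axes, from 0) of Fth1, Ftl1 and Tf in each rat of the 4 groups, with the group mean and SD in black. Ftl1 and Tf of every injected rat lie above those of every untreated rat, whereas the Fth1 levels of the groups overlap.

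The comparison of obese with lean rats in the untreated cohort asks whether genetic obesity comes with altered iron storage or carriage transcripts in the choroid plexus. None of the 3 transcripts passed the test. The means of obese rats differed from those of lean rats by 10.3% for Fth1, -7.84% for Ftl1 and 7.48% for Tf, and for each of them the groups overlapped.

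For Fth1, the heavy chain that carries the ferroxidase activity, the lean rats had a lowest level of 1487, a median of 1698 and a highest of 1728 TPM. The obese rats had a lowest level of 1562, a median of 1867 and a highest of 2027 TPM. Of the 6 obese rats, 5 lay above every lean rat and obese rat 10 lay among them. The mean was 1662 ± 91.2 TPM for lean rats and 1833 ± 165 TPM for obese rats (SD, n = 6 each). The log2 fold change was 0.14 (SE 0.07, 95% interval -0.0036 to 0.28), with an adjusted p of 0.537 in limma and an exact two-sided permutation p of 0.0563. The lowest rats of both groups, lean rat 6 and obese rat 10, were also those with the largest Ttr share (39.0 and 39.3%), and with Ttr left out of the scaling the log2 fold change of Fth1 was 0.15 with an adjusted p of 0.229 (limma).

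For Ftl1, the chain that aids core formation, the lean rats had a lowest level of 39.8, a median of 44.3 and a highest of 46.7 TPM. The obese rats had a lowest level of 37.0, a median of 39.9 and a highest of 45.4 TPM. The means were 43.7 ± 2.84 and 40.3 ± 3.42 TPM (SD, n = 6 each), with 3 obese rats below every lean rat. The log2 fold change was -0.12 (SE 0.07, 95% interval -0.26 to 0.03), with an adjusted p of 0.626 in limma and an exact permutation p of 0.0909.

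For Tf, the carrier of iron in plasma and cerebrospinal fluid, the lean rats had a lowest level of 1923, a median of 2256 and a highest of 2726 TPM. The obese rats had a lowest level of 2075, a median of 2289 and a highest of 2855 TPM. Obese rats 11 and 12 stood above every lean rat, and the other 4 lay within the lean range. The means were 2262 ± 273 and 2432 ± 337 TPM (SD, n = 6 each). The log2 fold change was 0.10 (SE 0.10, 95% interval -0.11 to 0.31), with an adjusted p of 0.780 in limma and an exact permutation p of 0.344.

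Thus 0 of the 3 transcripts were called at an adjusted p under 0.05 (limma with Benjamini-Hochberg adjustment over 15176 genes), where 0 genes (0%) were called over the whole table. At an unadjusted p under 0.05, 0 of the 3 passed and 1466 genes (9.66%) did. The groups separated without overlap for 0 of the 3, against 0.54% of all genes.

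The injected cohort asks the same of obese rats made hyperandrogenic, against vehicle-injected lean controls. Again none of the 3 transcripts passed the test, and Ftl1 had nearly equal means. The Fth1 levels were 1473, 1426, 1554 and 1586 TPM in lean control rats 13 to 16 and 1571, 1656, 1691 and 1501 TPM in obese + TT rats 17 to 20. The groups overlapped, since obese + TT rats 17 and 20 lay within the control range and rats 18 and 19 above it. The means were 1510 ± 73.2 and 1605 ± 85.4 TPM (SD, n = 4 each), with a log2 fold change of 0.09 (SE 0.07, 95% interval -0.07 to 0.24), an adjusted p of 0.811 in limma and an exact permutation p of 0.143.

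The Ftl1 levels were 66.0, 70.3, 62.9 and 68.6 TPM in the lean control rats and 60.4, 70.3, 66.3 and 69.9 TPM in the obese + TT rats. Both groups covered almost the same range. The means were 66.9 ± 3.25 and 66.7 ± 4.55 TPM (SD, n = 4 each), with a log2 fold change of -0.01 (SE 0.06, 95% interval -0.15 to 0.14), an adjusted p of 0.989 in limma and an exact permutation p of 0.914. Its sign turned when single rats were left out.

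The Tf levels were 3593, 4033, 4331 and 4172 TPM in the lean control rats and 3648, 3473, 3767 and 3960 TPM in the obese + TT rats. The highest 3 values belonged to lean control rats, and lean control rat 13 lay among the obese + TT rats. The means were 4033 ± 317 and 3712 ± 205 TPM (SD, n = 4 each), with a log2 fold change of -0.12 (SE 0.09, 95% interval -0.32 to 0.08), an adjusted p of 0.807 in limma and an exact permutation p of 0.143. With 4 rats a group, 0.0286 is the smallest p an exact permutation test allows.

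Here too 0 of the 3 were called, where 0 of 15259 genes (0%) were called and 7.43% had an unadjusted p under 0.05, as did 0 of the 3. Groups did not overlap for 4.02% of all genes and for 0 of the 3. The difference between the obesity contrasts of both cohorts was tested in 1 fit of all 20 libraries. It was -0.05 for Fth1 (95% interval -0.25 to 0.15, adjusted p = 0.926), 0.11 for Ftl1 (95% interval -0.09 to 0.31, adjusted p = 0.810) and -0.22 for Tf (95% interval -0.51 to 0.07, adjusted p = 0.715) on the log2 scale (limma). Of 15406 genes, 0 (0%) were called for this difference and 8.36% had an unadjusted p under 0.05.

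Between the cohorts the picture was different. Ftl1 and Tf stood higher in every injected rat than in any untreated rat, while Fth1 did not follow them and had lower means. The lowest injected rat had 60.4 TPM of Ftl1, and the highest untreated rat 46.7 TPM. For Tf, the lowest injected rat had 3473 TPM and the highest untreated rat 2855 TPM. For both transcripts the groups therefore fell into an untreated pair (lean and obese) and an injected pair (lean control and obese + TT), with overlap within each pair. The order of the Fth1 means was lean control, obese + TT, lean and obese, and each group overlapped the next.

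In lean rats, Ftl1 was 1.53-fold higher in the injected lean control rats than in the untreated lean rats (log2 fold change 0.61, SE 0.06, limma adjusted p = 5.33e-06). Tf was 1.78-fold higher (log2 fold change 0.84, SE 0.10, limma adjusted p = 1.37e-05). The exact permutation p was 0.00952 for both, the smallest that 6 against 4 rats allow. These 2 of the 3 were called and did not overlap, where 58.2% of 15326 genes were called (41.7% higher, 16.5% lower) and 44.8% did not overlap (34% higher, 10.7% lower). The mean of Fth1 differed by -9.17% (log2 fold change -0.14, SE 0.07, limma adjusted p = 0.0879, exact permutation p = 0.0381), with overlapping groups.

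In obese rats, Ftl1 was 1.66-fold higher in the obese + TT rats than in the untreated obese rats (log2 fold change 0.73, SE 0.08, limma adjusted p = 1.15e-05). Tf was 1.53-fold higher (log2 fold change 0.62, SE 0.10, limma adjusted p = 0.000194). Both had an exact permutation p of 0.00952 and no overlap. Again 2 of the 3 were called, where 58.1% of 15389 genes were called (41.7% higher, 16.4% lower) and 45.8% did not overlap (34.1% higher, 11.7% lower). The mean of Fth1 differed by -12.5% (log2 fold change -0.19, SE 0.08, limma adjusted p = 0.0515, exact permutation p = 0.0476), with overlapping groups. With more genes called than not, the calls alone do not set Ftl1 and Tf apart from the rest of the table.

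**Figure D2:**
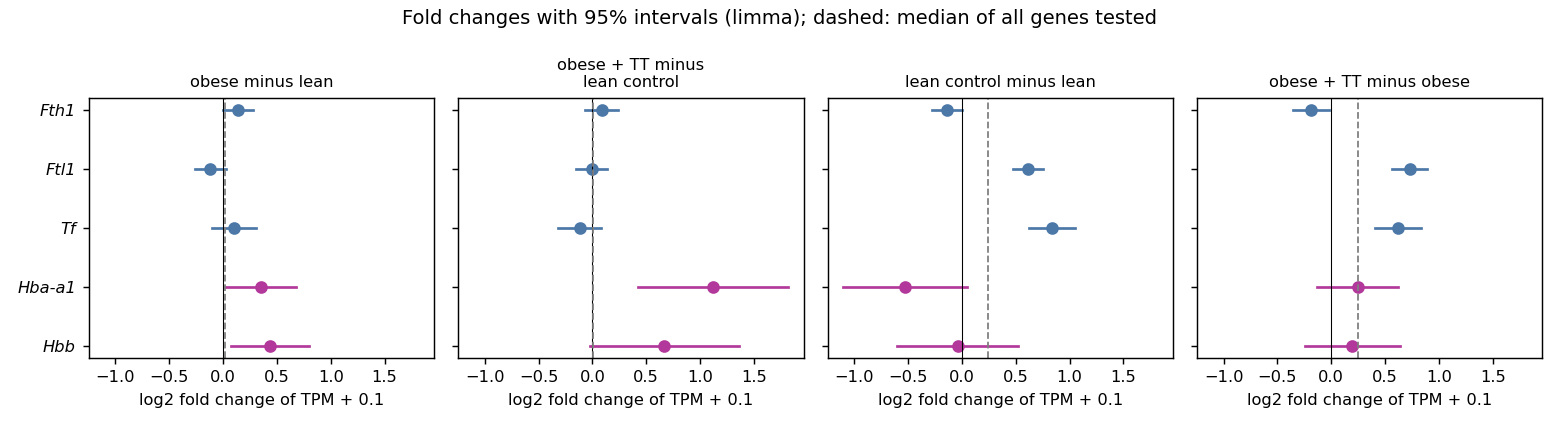
Log2 fold changes of TPM + 0.1 (horizontal axis) with 95% intervals for the 3 transcripts and the globins Hba-a1 and Hbb in the 4 comparisons, with the median of all genes tested as a dashed line. Ftl1 and Tf lie to the right of that median in both comparisons between the cohorts, at 0.61 and 0.84 in lean and at 0.73 and 0.62 in obese rats, and Fth1 lies to the left of it.

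TPM shares a fixed total, and the whole table was shifted between the cohorts. The median log2 fold change over all genes tested was 0.24 in lean and 0.25 in obese rats. Relative to this median, Tf was 0.60 and 0.37 higher, Ftl1 0.37 and 0.48 higher and Fth1 0.38 and 0.43 lower in lean and in obese rats, in that order. Among the log2 fold changes of all genes, Tf stood at percentiles 81.2 and 71.8, Ftl1 at 71.3 and 77.0, and Fth1 at 27.7 and 24.7. Of the genes called, 71.6% were higher in the lean control rats under TPM, 62.6% with Ttr left out of the scaling, 53.9% under median-of-ratios scaling and 49.9% under FPKM. For obese + TT against obese rats these shares were 71.8, 58.6, 53.4 and 48.5%.

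The direction of all 3 transcripts held under these scalings, and for Fth1 the call depended on them. In lean rats, the log2 fold change under median-of-ratios scaling was 0.63 for Tf, 0.40 for Ftl1 and -0.35 for Fth1, with adjusted p (limma) of 0.000144, 0.000282 and 8.5e-05. In obese rats it was 0.40 for Tf, 0.51 for Ftl1 and -0.41 for Fth1, with adjusted p (limma) of 0.00143, 0.00019 and 0.000419. Fth1 was thus called lower in the injected cohort under that scaling, with Ttr left out and under FPKM. With TPM as deposited it was not called in the test used here, but in obese rats, at an adjusted p of 0.0515 (limma), it lay near the threshold and passed it with a minimum mean of 1 TPM, with robust eBayes and in the fit of all 20 libraries.

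Ratios within a library do not depend on the scaling. They were computed after the values were seen. The ratio of Tf to Fth1 was 1.36 ± 0.155 in lean, 1.34 ± 0.238 in obese, 2.67 ± 0.176 in lean control and 2.32 ± 0.230 in obese + TT rats (SD, n = 6, 6, 4 and 4). Its highest value in the untreated cohort was 1.64 and its lowest in the injected cohort 2.10. The ratio of Fth1 to Ftl1, heavy to light chain, was 38.1 ± 2.22, 45.6 ± 4.26, 22.6 ± 1.84 and 24.1 ± 2.05 in the same order. It was at least 36.4 in every untreated and at most 26.0 in every injected rat. Within the untreated cohort it was 1.20-fold higher in obese than in lean rats (41.5 to 52.5 against 36.4 to 42.4, overlapping), with an exact permutation p of 0.00649, or 0.0229 adjusted over 12 comparisons of ratios, a test of ratios picked after their values were seen. In the injected cohort it was 1.07-fold (exact permutation p = 0.314, adjusted p = 0.377). The ratio of Tf to Ftl1 overlapped between all 4 groups, with means of 51.9, 60.7, 60.4 and 55.8.

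Named markers of other cell types moved between the cohorts as well, and a marker may be named through the cohort in which it is high. Of 14 macrophage and microglia markers, 2 had a named gene (Lyz2 and Cd74), and both were lower in the injected cohort. Their summed level was 415 to 475 TPM in lean, 446 to 546 in obese, 126 to 284 in lean control and 95.2 to 213 in obese + TT rats. Of 10 markers of endothelium and mural cells, 2 were named (Plvap and Rgs5), both lower, with sums of 132 to 167, 119 to 180, 4.42 to 19.8 and 7.09 to 12.2 TPM. Of 7 stromal markers 3 were named (Col1a1 and Dcn lower, Pdgfra higher), with sums of 107 to 139, 107 to 150, 51.1 to 91.0 and 62.9 to 79.4 TPM.

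Of 12 oligodendrocyte markers 1 was named (Ermn, 24.3 to 44.3, 13.7 to 29.1, 13.6 to 23.9 and 18.8 to 24.2 TPM), of 7 astrocyte markers 1 (Gja1, 5.21 to 7.39, 4.79 to 9.12, 1.21 to 2.47 and 2.94 to 3.39 TPM) and of 9 neuron markers 0. No named marker had a mean of 0 in any group. Of the 10 epithelial markers, 8 were higher and 0 lower in lean control than in lean rats, and 6 were higher and 1, Ttr, lower in obese + TT than in obese rats, where 41.7% of all genes were called higher and 16.5 and 16.4% lower. Under FPKM, 6 were higher and 1 lower in lean, and 5 higher and 1 lower in obese rats. That scaling called 8923 of 15408 genes in lean rats, 49.9% of the calls higher. It called 8740 of 15468 genes in obese rats, 48.5% of the calls higher. Ttr was also lower in every lean control than in every lean rat (-15.0%, exact permutation p = 0.00952), as were 10.7% of all genes. It was not called there by limma on TPM (adjusted p = 0.378). Fewer cells of a type and less RNA per cell cannot be told apart in bulk tissue, and the part of these shifts in the levels of Fth1, Ftl1 and Tf was not tested.

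The globins, which encode the alpha and beta chains of haemoglobin, were set beside the members as a measure of blood. They varied far more within groups. The coefficient of variation within a group was 4.85 to 13.9% for the 3 transcripts and 20.5 to 57.8% for Hba-a1 and Hbb. The Hba-a1 levels had a lowest value of 1685, a median of 2199 and a highest of 3045 TPM in lean rats, and 2232, 2882 and 3831 TPM in obese rats. They were 3303, 1278, 1287 and 1213 TPM in the lean control rats and 4023, 2641, 4444 and 3110 TPM in the obese + TT rats. In Hba-a1, lean control rat 13 stood apart from the other 3 lean control rats.

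Hbb levels had a lowest value of 783, a median of 963 and a highest of 1414 TPM in lean rats, and 982, 1455 and 1789 TPM in obese rats. They were 1359, 953, 1470 and 546 TPM in the lean control rats and 1582, 1174, 2386 and 1497 TPM in the obese + TT rats. All 4 groups overlapped their partner for both globins. The named copies Hba-a2 and Hbb-bs ran from 409 to 1557 and from 190 to 700.4 TPM over the 20 rats.

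**Figure D3:**
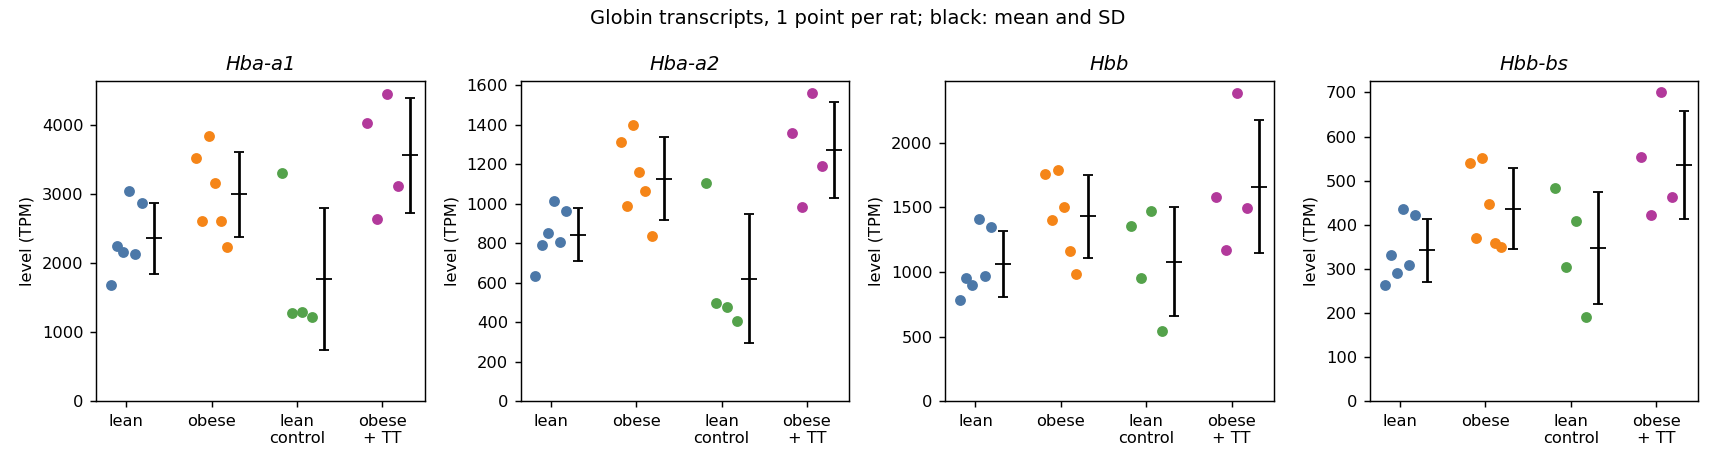
Level in TPM (vertical axes, from 0) of the 4 named globin transcripts in each rat, with the group mean and SD in black. Obese and obese + TT rats have the higher means, and lean control rat 13 stands above the other 3 lean control rats in Hba-a1 (3303 TPM) and Hba-a2 (1106 TPM).

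In the obesity contrasts, where the 3 transcripts had small differences of either sign, the globins had higher means in obese rats. Hba-a1 had a log2 fold change of 0.35 (SE 0.15) and Hbb of 0.43 (SE 0.17) in the untreated cohort, with limma adjusted p of 0.490 and 0.438. In the injected cohort these were 1.12 (SE 0.31) and 0.67 (SE 0.31), with limma adjusted p of 0.518 and 0.672. None was called. Without lean control rat 13, Hba-a1 was at 1.47 with an adjusted p of 0.0352 (limma), while the log2 fold changes of Fth1, Ftl1 and Tf stayed uncalled whichever rat was left out.

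The 5 named genes of a list of 19 globin and red cell genes all had an unadjusted p under 0.05 in the untreated obesity contrast (9.66% of all genes did), and 4 of 5 did in the injected one (7.43%), both in limma on TPM. The published symbols include those of genes the study called in these same rats, so a gene may be named through its difference. These counts are therefore a description only. In the untreated cohort the exact permutation p was 0.0823 for Hba-a1, 0.0541 for Hbb, 0.0714 for Hbb-bs, 0.0195 for Hba-a2 and 0.00216 for Slc4a1. Under median-of-ratios scaling the unadjusted p (limma) was 0.0804 for Hba-a1 and 0.0511 for Hbb. Slc4a1, the red cell anion exchanger, was the gene without overlap in both, where 0.297 and 2.37% of all genes were higher without overlap, and is named after its values were seen. Its means were 0.183 and 0.483 TPM in lean and obese rats and 0.217 and 0.71 TPM in lean control and obese + TT rats. No globin was called higher between the cohorts. Hba-a1 was at -0.53 (SE 0.26, adjusted p = 0.106) in lean and at 0.24 (SE 0.17, adjusted p = 0.245) in obese rats. The lean value was called lower without lean control rat 13 (-0.87, adjusted p = 0.000658), under median-of-ratios scaling (-0.74, adjusted p = 0.0446) and under FPKM (-0.79, adjusted p = 0.0275), all by limma. Hbb was at -0.04 (SE 0.26, adjusted p = 0.908) and at 0.20 (SE 0.20, adjusted p = 0.428), all by limma, and the sign in obese rats turned under FPKM for both.

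Each transcript was then correlated with each globin over the rats of a cohort (log2 scale, 12 relations). The lowest p was that of Tf with Hba-a1 in the 8 injected rats, with Pearson r = -0.76 (permutation p = 0.0443, adjusted over the 12 relations p = 0.532) and Spearman rho = -0.60 (permutation p = 0.132, adjusted p = 0.636). Without the 2 rats farthest from the median of Hba-a1, lean control rats 14 and 16, r was -0.68, and with the group means subtracted it was -0.61. Tf with Hbb in the same 8 rats had r = -0.35. That r was 0.02 without lean control rat 16 and obese + TT rat 19, and -0.04 with the group means subtracted. In the 12 untreated rats, the 6 relations had Pearson r between -0.29 and 0.26 and Spearman rho between -0.27 and 0.27, with adjusted permutation p of 0.581 for each r and 0.636 for each rho. With the group means subtracted, r in the untreated rats was -0.41 for Tf with Hba-a1 and -0.59 for Tf with Hbb, and between -0.16 and 0.07 for the ferritin chains. Without lean rat 1 and obese rat 9, the farthest from the median, r was -0.47 and -0.54 for Tf. No relation passed the correction.

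**Figure D4:**
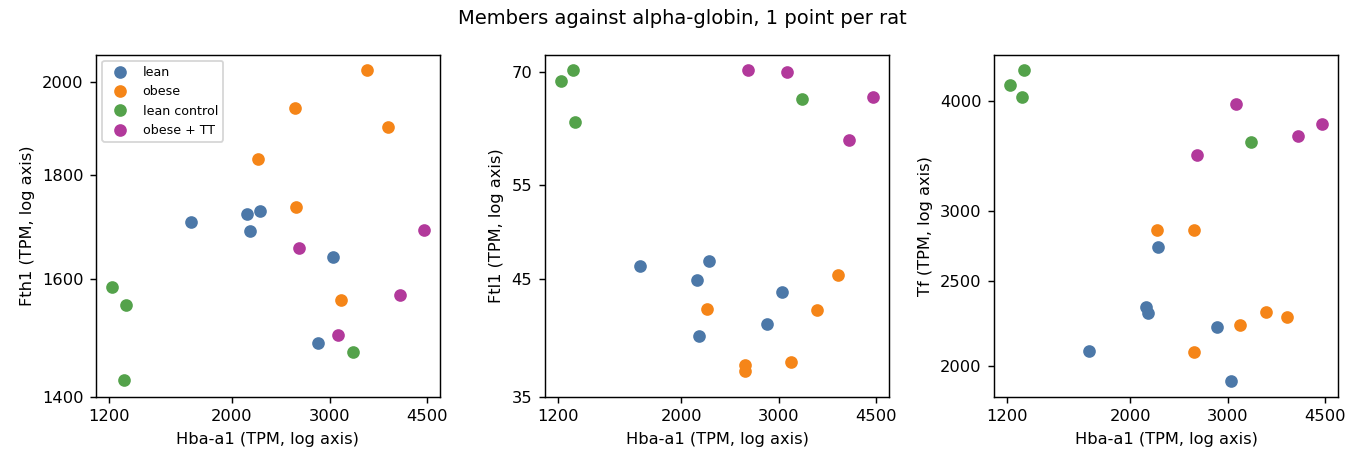
Level in TPM of Fth1, Ftl1 and Tf (vertical log axes) against Hba-a1 (horizontal log axis), 1 point for each of the 20 rats, coloured by group. Ftl1 and Tf split by cohort where both cohorts have rats (Hba-a1 of 1685 to 3831 TPM), and the 3 lean control rats with the lowest Hba-a1 have the highest Tf (4033 to 4331 TPM).

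Other genes of iron handling were taken from lists of iron uptake and transport, iron sensing and ferritin turnover, haem and iron-sulphur handling, and targets of the stress regulator NRF2, which also drives ferritin genes. Only genes with a symbol in the tables used here could be named, which held for 4 of 22, 9 of 17, 10 of 29 and 2 of 12. Of the 2616 genes with a symbol, 2381 had a mean of at least 10 TPM, so most named genes are abundant. A gene may be named through the cohort in which it is high, so the counts and sizes below are descriptions only. In both obesity contrasts 0 of the 25 named genes of these lists were called (0% of all genes were). In the injected cohort Hfe, Fbxl5 and Slc48a1 were higher in every obese + TT than in every lean control rat, with adjusted p of 0.642, 0.594 and 0.518 (limma), where 2.37% of all genes were higher without overlap.

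Between the cohorts all 4 named genes of iron uptake and transport were called higher in both lean and obese rats under TPM, where 41.7% of all genes were, with a median log2 fold change of 0.48 and 0.53 against 0.24 and 0.25 over all genes. Steap2, a metalloreductase that reduces iron released from transferrin, was at 32.8 ± 4.34 TPM in lean and 64.5 ± 4.85 in lean control rats, and at 31.9 ± 5.58 in obese and 67.7 ± 1.68 in obese + TT rats (SD). Steap1, of the same family, was at 78.8 and 122 TPM and at 77.4 and 118 TPM. Slc22a17, a receptor for the iron carrier lipocalin, was at 1138 and 1429 TPM and at 1171 and 1484 TPM. Hfe, a partner of the transferrin receptor, was at 74.8 and 85.7 TPM and at 70.3 and 94.8 TPM. Under median-of-ratios scaling and under FPKM, 2 of 4 were called in lean and 3 of 4 in obese rats, and the sign of Hfe turned in lean rats. Median-of-ratios scaling called 9066 of 15317 genes in lean rats (53.9% of the calls higher) and 8843 of 15363 in obese rats (53.4%). FPKM called 8923 of 15408 genes in lean rats (49.9% of the calls higher) and 8740 of 15468 in obese rats (48.5%).

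Of the 9 genes of iron sensing and ferritin turnover, 4 were called higher in both lean and obese rats, a share near the 41.7% of all genes, so the count is no result about the list. Fbxl5, the iron-sensing subunit of the ligase that degrades an iron regulatory protein, was at 80.3 and 99.8 TPM in lean and lean control rats and at 79.1 and 113.9 TPM in obese and obese + TT rats. Ncoa4, the receptor that takes ferritin to the lysosome, was at 51.0 and 61.2 TPM and at 48.3 and 62.5 TPM. Pcbp2, an iron chaperone, was at 101 and 131 TPM and at 94.9 and 130.1 TPM, and Hif1a, an oxygen-regulated factor, at 36.2 and 53.5 TPM and at 34.7 and 54.9 TPM. Pcbp4 was called lower in lean rats (47.1 and 33.0 TPM). Skp1 (648 and 580 TPM, 634 and 597 TPM) and Epas1 (57.5 and 59.2 TPM, 58.2 and 58.8 TPM) were not called.

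The median log2 fold change of these 9 was 0.07 and 0.16, below the 0.24 and 0.25 of all genes. Under FPKM, 1 was called higher and 4 lower in lean and 3 higher and 4 lower in obese rats. Of all genes under FPKM, 8923 of 15408 were called in lean rats (49.9% of the calls higher). In obese rats 8740 of 15468 were called (48.5% of the calls higher).

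Of the 10 genes of haem and iron-sulphur handling, 1 was called higher and 3 lower in lean rats, and 2 higher and 3 lower in obese rats, where 41.7% of all genes were called higher and 16.5 and 16.4% lower. The 3 lower ones serve the assembly of iron-sulphur clusters, as does Nfs1, the sulphur donor, which was not called (62.5 and 66.9 TPM, 59.7 and 65.2 TPM). Iscu, the scaffold, was at 107 ± 6.01 TPM in lean and 78.4 ± 6.57 in lean control rats, and at 114 ± 9.39 in obese and 78.1 ± 5.24 in obese + TT rats (SD). Isca2 was at 114 and 82.9 TPM and at 112 and 82.2 TPM. Glrx5 was at 62.6 and 52.1 TPM and at 61.1 and 50.4 TPM, in obese rats at an adjusted p of 0.0499 (limma). Isca1 (123 and 117.5 TPM, 121.5 and 120.1 TPM) and Pgrmc1, a haem-binding membrane protein (343 and 339 TPM, 318 and 312 TPM), were not called.

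Among the 25 named genes Lrp1, a receptor that also takes up haem bound to haemopexin, had the largest change. Its levels were 28.4 ± 3.35 and 92.1 ± 11.8 TPM and 31.4 ± 9.27 and 98.0 ± 9.53 TPM (SD), 1.69 on the log2 scale in both. It may be named through the injected cohort, where it is high. The haem transporter Slc48a1 was called higher in obese rats (60.8 and 72.8 TPM), but its sign turned under FPKM. The medians of the 10 genes were -0.03 and -0.02 against 0.24 and 0.25 of all genes. Under FPKM, 1 was called higher and 9 lower in lean and 1 higher and 7 lower in obese rats. Over all genes, FPKM gave 8923 calls of 15408 in lean rats, 49.9% of these calls higher. In obese rats it gave 8740 calls of 15468, 48.5% of these calls higher. Of the NRF2 targets, Mgst1, a glutathione transferase, was called lower (44.2 and 34.5 TPM, 43.3 and 34.2 TPM) and Prdx1, a peroxidase, was not (554 and 493 TPM, 574 and 541 TPM).

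**Figure D5:**
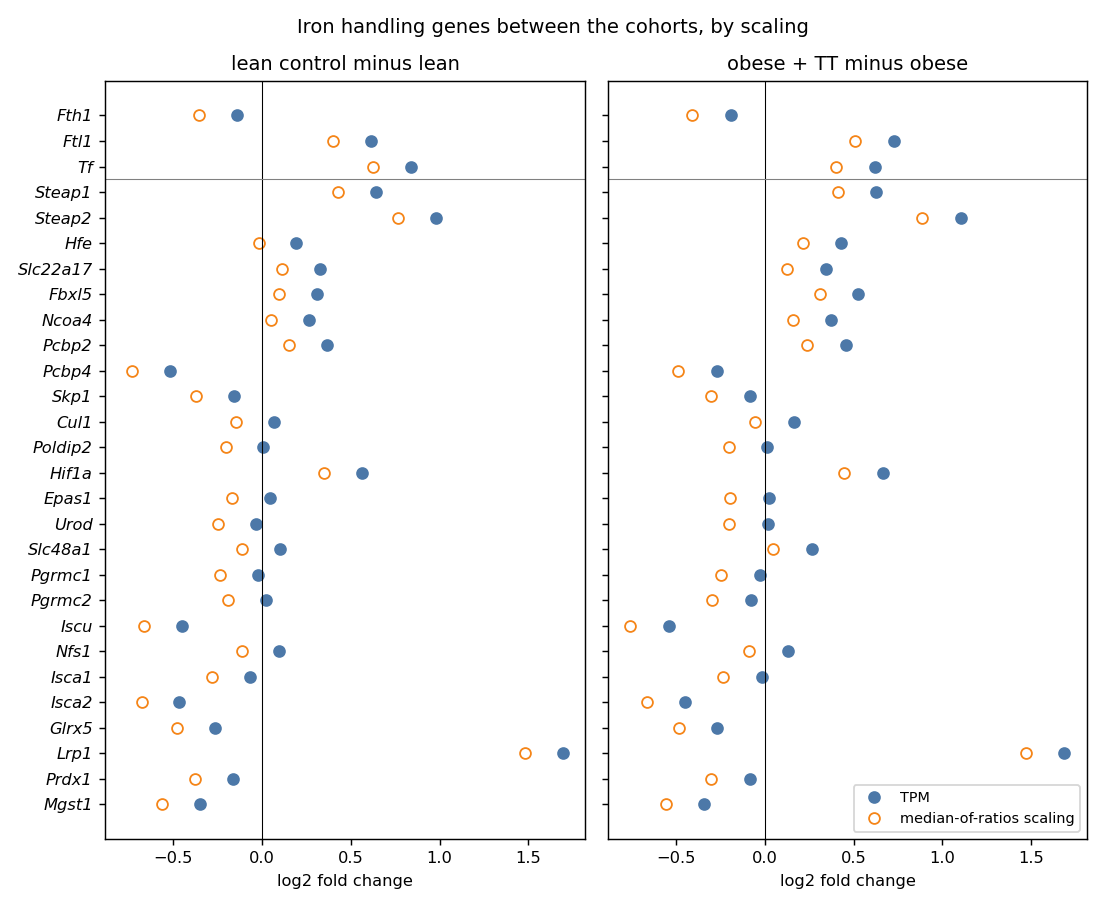
Log2 fold change between the cohorts (horizontal axis) in lean and in obese rats for the 3 transcripts and the 25 named iron, haem and NRF2 genes, under TPM (filled) and median-of-ratios scaling (open). Lrp1 and Steap2 lie farthest to the right. Fth1 lies on the left under both scalings, as do Iscu, Isca2, Glrx5, Pcbp4 and Mgst1 among others.

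Among 2380 named genes whose mean reached 10 TPM, those most like each member over the 20 rats were found by Pearson r on the log2 scale. For Tf they were Chd4, Mprip and Rbm47 (r = 0.97 each). For Ftl1 they were AC134224.2 (0.95), Slc13a4, a sulphate transporter (0.94), and Stk24 (0.94). For Fth1 they were Fdx1, an iron-sulphur protein of mitochondria (0.92), Clta, a clathrin light chain (0.91), and Serbp1 (0.89). The points share the split between the cohorts. Tf and Ftl1 had r = 0.88 over the 20 rats and 0.10 once the group means were subtracted, and Fth1 and Ftl1 -0.57 and 0.35.

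With the group means subtracted, the genes most like Fth1 were Gpx1, the glutathione peroxidase that removes peroxide (0.92), Capzb (0.91) and Acadvl (0.90). Those most like Ftl1 were Ptgds (0.71), Tspo (0.68) and Rps19l2 (0.63), and those most like Tf were Dmtn (0.81), Mia2 (0.81) and Ap3d1 (0.78). Within the groups, r with Ttr was -0.62 for Fth1, -0.30 for Tf and 0.01 for Ftl1. Each value in a library shares its total with Ttr.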

How the data were processed

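RNA of 20 rats was sequenced as paired-end reads, which the authors mapped with STAR 2.7.9a to Rnor_6.0. The submitters' notes also name RSEM 1.3.3 without its role. The authors deposited TPM and FPKM per Ensembl gene and rat, and TPM has the same sum in each library within rounding. FPKM differs from TPM by 1 factor per library and served as an alternative scaling. The counts behind the study's own DESeq2 test were not analysed here. That test called genes in both obesity contrasts, where limma on TPM called none. Symbols came from the gene lists published with the study and cover 2616 of 32883 genes, with 25 conflicts between lists.

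Here limma 3.58.1 (R 4.3.3) was run on log2(TPM + 0.1), so fold changes of low genes are understated, keeping genes whose mean reached 0.1 TPM in the groups compared, with a trend in eBayes and Benjamini-Hochberg adjustment over all genes tested, called under 0.05. It was tested on simulated data. The 3 transcripts, the named globins, Slc4a1, Ttr and the ratios also had an exact two-sided permutation test (Python 3.11.15, scipy 1.17.1). The other list genes were tested by limma alone. P-values measure the spread between rats, 1 library each. Median-of-ratios factors used genes whose mean reached 10 TPM. Named genes were the 3 transcripts and the globins, from each iron, haem and NRF2 list those called (at most 6) and the 4 with the highest mean, and the 3 genes most like each member. The members and lists were chosen with earlier results of these data known.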

Additional observations from a re-analysis of the deposited data

Results flagged for a closer look

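Of 28 groups of 4 to 6 values checked, 3 held a rat far from the rest by Dixon's criterion, where chance gives about 1.4. The checks are not independent, since they include globin copies of the same rats, and both globin hits are of lean control rat 13. The count is therefore a description only. Fth1 in lean rat 6 was at 1487 TPM, and the other 5 lean rats lay between 1640 and 1728 TPM. Hba-a1 in lean control rat 13 was at 3303 TPM, and the other 3 lean control rats lay between 1213 and 1287 TPM. Hba-a2 in the same rat was at 1106 TPM, against 409 to 496 TPM in the other 3. Its Hbb, at 1359 TPM, lay below that of lean control rat 15 (1470 TPM), and no rat was flagged for Hbb or Hbb-bs.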

How the results depend on the processing

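Of 656 values under alternative settings, 605 were labelled the same as in the main setting. For fold changes this meant the same direction and side of the threshold. For numbers of genes called and for correlations it meant a value within a set margin of the main one. Ftl1 and Tf were called higher in the injected cohort under all settings run. The number of genes called in the untreated obesity contrast was 0, and 1 under median-of-ratios scaling, 1 under FPKM, 3 in a fit of all 20 libraries and 0 to 1 when single rats were left out. In the injected contrast it was 6 when all 20 libraries were fitted together and 0 to 25 when single rats were left out, with 25 without lean control rat 13. For the difference between these contrasts it was 1 with a minimum mean of 1 TPM, 10 with Ttr left out of the scaling, 2 under median-of-ratios scaling, 2 under FPKM, 1 with robust eBayes and 0 to 14 when single rats were left out, with 14 without lean control rat 13, 4 without obese + TT rat 20, 3 without lean control rat 15, 2 without obese + TT rat 17 and 1 without lean rat 5 or obese rat 9.

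Fth1 passed the threshold in lean control against lean rats with Ttr left out (-0.25), under median-of-ratios scaling (-0.35) and under FPKM (-0.40), and ran from -0.17 to -0.11 when single rats were left out (adjusted p by limma 0.0175 to 0.217, past the threshold without lean rat 6). In obese + TT against obese rats it passed with Ttr left out (-0.34), under median-of-ratios scaling (-0.41), under FPKM (-0.47) and, at -0.19, with a minimum mean of 1 TPM, with robust eBayes and in the fit of all 20 libraries. It ran from -0.23 to -0.16 when single rats were left out (adjusted p by limma 0.00752 to 0.138, past the threshold without obese rat 10).

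Signs turned for Ftl1 in obese + TT against lean control rats (-0.036 to 0.0404 when single rats were left out, positive without lean control rat 14 (0.0177), lean control rat 16 (0.0062) or obese + TT rat 17 (0.0404)), for Hbb in lean control against lean rats (-0.22 to 0.26) and in the difference between the contrasts (-0.0614 to 0.415). In obese + TT against obese rats they turned for Hba-a1 under FPKM (-0.0326) and for Hbb under median-of-ratios scaling (-0.0229) and FPKM (-0.0819). The cause was not tested. Sums over ferritin copies were not run, since the tables name 1 entry for each chain. No paired analysis was possible because the groups share no replicate numbers. The depth behind each value is unknown, so counting error could not be set beside the spread between rats.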
